A study of Homo sapiens with 33 samples.

Results

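This section describes the expression and start-site chromatin of 9 WNT ligand genes (WNT3, WNT3A, WNT5A, WNT5B, WNT6, WNT7B, WNT8A, WNT10B and WNT11) and of the WNT antagonist gene DKK1 in human ESCs that lack EZH2. The 10 genes were taken by name from the 35805 genes of the RNA-seq table and from the 35683 gene names of the ChIP-seq table, where they hold 48 of the 153958 start-site windows. They were taken whatever their values. The lines were made from H9, an established human ESC line kept on irradiated mouse embryonic fibroblasts with FGF2. EZH2+/+ ESCs were the parental cells. EZH2-/+ ESCs were a clone with 1 allele disrupted by CRISPR/Cas9. EZH2-/- ESCs came from an EZH2-/+ line that carried a piggyBac EZH2 transgene driven by doxycycline (DOX) and was targeted again under DOX, and they were then grown without DOX. EZH2-/- +EZH2 ESCs were EZH2-/- cells with that transgene switched on by DOX. The genotypes with a disrupted allele thus stand for clonal lines, and differences between EZH2-/- and EZH2+/+ ESCs that stem from EZH2 and from the clone cannot be told apart, nor can the transgene and DOX in EZH2-/- +EZH2 ESCs. RNA-seq was performed on sorted SSEA4-positive cells, with 3 libraries a genotype. The histone marks H3K27me3, H3K4me3, H3K27ac and H3K4me1, and input, were profiled by ChIP-seq in all 4, and EZH2 itself in EZH2+/+ ESCs.

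WNT ligands are secreted, lipid-modified glycoproteins that bind Frizzled receptors. Some, such as WNT3, WNT3A and WNT8A, act mainly with LRP5 or LRP6 to stabilise β-catenin, which then works with TCF and LEF factors at target genes. Others, such as WNT5A and WNT11, act mainly on cell polarity and movement without β-catenin. DKK1 is a secreted protein that binds LRP5 and LRP6 and blocks the β-catenin branch. In pluripotent cells β-catenin signalling is known to start primitive streak and mesendoderm formation, and WNT3 and DKK1 act against each other in the early embryo. EZH2 is the enzyme of Polycomb repressive complex 2 that places H3K27me3, a mark of silent developmental genes.

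Promoter sequence is shown for 4 of the genes because they span the range of CG dinucleotides among the promoters found, and because H3K27me3 in ESCs is known to sit on CG-rich promoters. Sequences are from RefSeq (GRCh38.p14), 5′ to 3′ on the strand of the gene, upstream of the start site and ending before any transcribed base, with CG dinucleotides in capitals. WNT3A is shown at chr1:228006748-228006997 on the plus strand, WNT3 at chr17:46818761-46818942 on the minus strand, DKK1 at chr10:52314031-52314280 on the plus strand and WNT8A at chr5:138083783-138083891 on the plus strand.
WNT3A: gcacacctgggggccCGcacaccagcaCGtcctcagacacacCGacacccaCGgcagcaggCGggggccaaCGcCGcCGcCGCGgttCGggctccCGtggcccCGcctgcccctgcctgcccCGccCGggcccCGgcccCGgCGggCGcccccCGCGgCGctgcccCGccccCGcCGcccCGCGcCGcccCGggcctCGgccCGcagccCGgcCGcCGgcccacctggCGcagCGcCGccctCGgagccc
WNT3: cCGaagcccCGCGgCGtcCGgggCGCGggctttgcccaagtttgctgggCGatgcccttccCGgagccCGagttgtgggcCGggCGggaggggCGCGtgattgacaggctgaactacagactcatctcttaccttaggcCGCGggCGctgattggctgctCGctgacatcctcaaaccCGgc
DKK1: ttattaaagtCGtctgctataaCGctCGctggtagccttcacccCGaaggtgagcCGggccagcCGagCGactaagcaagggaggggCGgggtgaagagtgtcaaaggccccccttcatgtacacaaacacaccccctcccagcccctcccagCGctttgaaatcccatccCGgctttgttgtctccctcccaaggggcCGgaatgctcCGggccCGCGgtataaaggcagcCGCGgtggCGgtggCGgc
WNT8A: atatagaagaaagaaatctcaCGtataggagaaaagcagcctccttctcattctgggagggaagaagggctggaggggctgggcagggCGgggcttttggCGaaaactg
RefSeq promoters were found for 7 of the 10 genes, 9 promoters in all, and none was used for WNT7B, WNT10B and WNT11. Over the 300 bases from 250 before to 50 after the start, WNT3A held 49 CG dinucleotides, more than 98.4% of 35116 human promoters. WNT6 held 37, WNT3 held 28, the promoters of WNT5A held 22 and 21, DKK1 held 20, and those of WNT5B held 10 and 7. WNT8A held 4, against a median of 14 over all promoters. Of 2 motifs searched on both strands, CTTTGA, the core of the TCF and LEF motif, was found in 1 of the 9 promoters, that of DKK1, where it starts 149 and 95 bases before the start site, and in 12.9% of all promoters. TATAAA was found in 2 of the 9, 30 bases before the start of DKK1 and 78 bases before a start of WNT5B, and in 11.5% of all promoters. A match is a description of the sequence and not a binding site.

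The targeted gene followed the labels. EZH2 was at 68.6, 63.3 and 59.5 RPM (reads on a gene, scaled to a library total that is larger than the reads on genes) in the 3 EZH2+/+ libraries, at 55.4, 52.3 and 45.7 RPM in EZH2-/+, at 11.5, 8.65 and 9.68 RPM in EZH2-/- and at 271, 385 and 256 RPM in EZH2-/- +EZH2 ESCs. Summed over 10 markers of undifferentiated ESCs, the level was 3387 to 4380 RPM in EZH2+/+ libraries and 4182 to 4876 RPM in the other genotypes, and none of the 10 was at 0. Single markers moved in both directions, as NANOG rose by 1.98 on the log2 scale (adjusted p = 0.00215) and SOX2 fell by 1.05 (adjusted p = 0.00263) in EZH2-/- relative to EZH2+/+ ESCs. Libraries held 16587860 to 36589089 reads on genes. The RPM values imply totals of 25019064 to 56845644 reads, against which 3 reads correspond to 0.0528 to 0.120 RPM. Library 3 of EZH2-/+ and library 3 of EZH2-/- +EZH2 lay furthest from the others of their genotype. Rescaling by the median ratio over genes moved the median change of all genes from -0.13 to -0.01 in EZH2-/- relative to EZH2+/+ ESCs on the log2 scale, and the genes called there from 2593 higher and 3870 lower to 3381 higher and 2816 lower. In EZH2-/- +EZH2 relative to EZH2+/+ ESCs the same rescaling changed 701 higher and 1422 lower to 1031 and 872, and in EZH2-/+ relative to EZH2+/+ ESCs it changed 37 higher and 199 lower to 57 and 121. Of the directions given below for the 10 genes, the rescaling turned only that of WNT5A in EZH2-/- +EZH2 relative to EZH2+/+ ESCs. Because RNA was taken from populations, fewer cells of a type and less RNA per cell cannot be told apart.

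To compare the genes with each other, levels were divided by exon length (RPKM). In EZH2+/+ ESCs WNT8A stood highest at 14.1 ± 4.72 RPKM (SD, n = 3), above DKK1 at 3.39 ± 1.55 RPKM, without overlap of their libraries. WNT10B (1.67 RPKM), WNT5B (1.42 RPKM), WNT3 (1.41 RPKM), WNT3A (0.930 RPKM) and WNT5A (0.843 RPKM) followed, and neighbours in that order overlapped. WNT11 (0.186 RPKM) and WNT7B (0.127 RPKM) were lower and overlapped, and WNT6 was last at 0.0043 RPKM. In EZH2-/- ESCs DKK1 (8.56 ± 2.24 RPKM), WNT8A (7.20 ± 1.89 RPKM) and WNT3 (6.56 ± 0.969 RPKM) formed an overlapping upper group, apart from WNT5B at 2.54 RPKM and WNT5A at 2.19 RPKM. With the transgene on, WNT3 (2.89 RPKM) and WNT8A (2.74 RPKM) overlapped at the top and DKK1 stood at 1.56 RPKM. In EZH2-/+ ESCs the order ran from DKK1 at 4.22 RPKM to WNT6 at 0.00345 RPKM, and all neighbours except WNT7B and WNT6 overlapped.

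**Figure D1:**
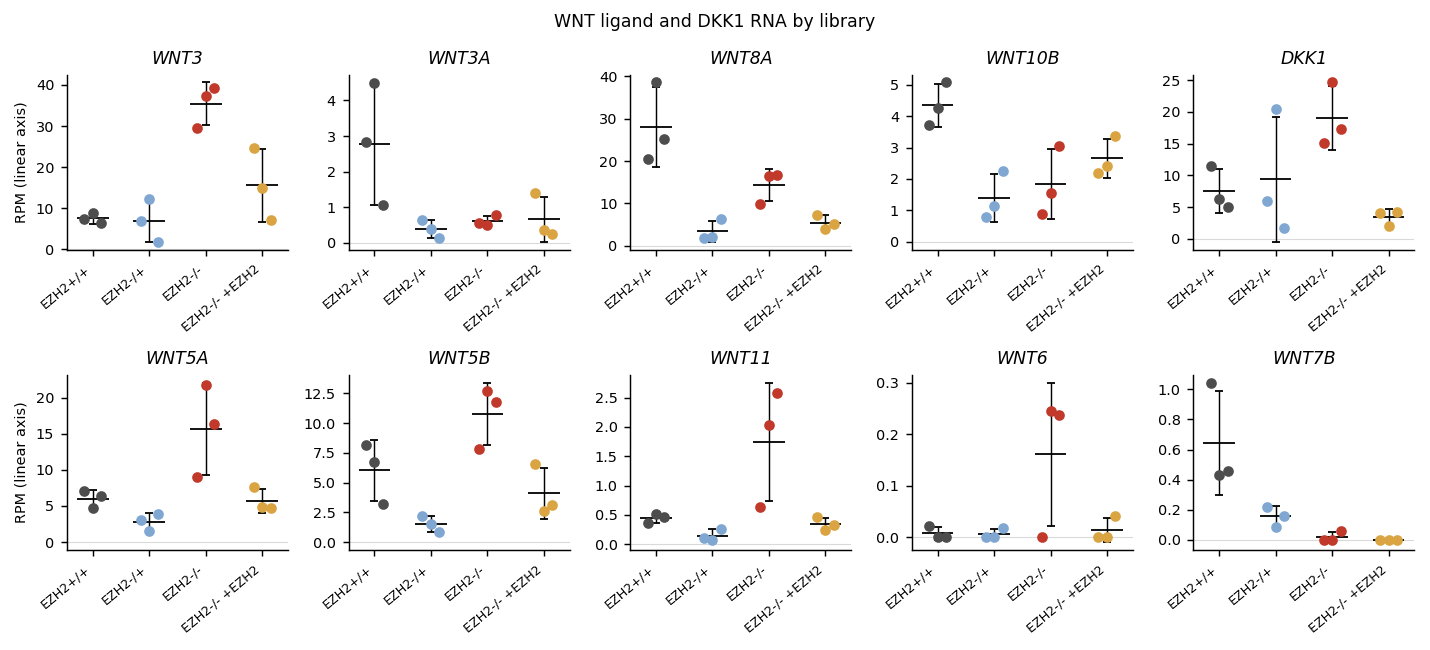
RNA level in RPM (linear axes starting at 0) of each of the 10 genes in the 12 libraries. Points are libraries, horizontal lines are means and bars are the SD of 3 libraries in each genotype. The 3 EZH2-/- libraries of WNT3 sit between 29.4 and 39.2 RPM, above the other 9.

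Genotypes were compared with limma on log2(RPM + 0.1), with Benjamini-Hochberg adjustment over 20608 genes. Of the 10 genes, 9 had a mean of at least 0.1 RPM and were tested, and WNT6 (0.0468 RPM) was not. The comparisons share libraries, so their values are given side by side. Since libraries of the same number deviated together across the genotypes, a second adjusted p, from limma with that number as a block, is printed wherever it changed the call of one of these genes. The p-values measure the spread between libraries of the same lines.

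Relative to EZH2-/- +EZH2 ESCs, 1 of the 9 tested genes, WNT11, rose in EZH2-/- ESCs and 0 fell, against 2.63% of all tested genes higher and 0.524% lower. With the block, 5 rose (WNT5A, WNT5B, WNT8A, WNT11 and DKK1) and 0 fell, against 6.19% and 3.21%. Unadjusted p-values were under 0.05 for 6 genes that were higher and 0 that were lower, and limma voom on recovered reads called 0 and 0. In 6 of the 10 genes (WNT3, WNT5A, WNT5B, WNT8A, WNT11 and DKK1) all 3 EZH2-/- libraries lay above all 3 EZH2-/- +EZH2 libraries, which held for 13.5% of tested genes. The reverse held for 0 of the 10, against 9.7%. The median log2 change was 1.39, against 0.02 over all tested genes.

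Relative to EZH2+/+ ESCs, EZH2-/- ESCs showed both directions. WNT3, WNT5A and WNT11 rose and WNT3A, WNT7B and WNT10B fell, with 12.6% of tested genes higher and 18.8% lower. These 6 were also called with the block. The libraries did not overlap for 4 genes that were higher (WNT3, WNT5A, WNT11 and DKK1), against 20.6%, and for 4 that were lower (WNT3A, WNT7B, WNT8A and WNT10B), against 29.2%. The median log2 change was 0.90, against -0.13 over all tested genes. The ligands known mainly for β-catenin signalling were therefore found on both sides.

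In EZH2-/+ relative to EZH2+/+ ESCs, 1 gene, WNT8A, fell and 0 rose, against 0.966% lower and 0.18% higher. The block added falls of WNT3A, WNT5B, WNT7B and WNT10B, for 5 lower and 0 higher against 2.16% and 0.718%. At an unadjusted p under 0.05, 7 were lower and 0 higher, and limma voom called 1 lower and 0 higher. All 9 tested genes had a negative log2 change, with a median of -1.48 against -0.09 over all tested genes. In 7 of them (WNT3A, WNT5A, WNT5B, WNT7B, WNT8A, WNT10B and WNT11) the EZH2-/+ libraries lay wholly below the EZH2+/+ libraries, against 11.9% of tested genes, and for 0 they lay wholly above, against 3.17%.

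In EZH2-/- +EZH2 relative to EZH2+/+ ESCs, WNT7B and WNT8A fell and 0 of the 9 rose, against 6.9% lower and 3.4% higher. With the block WNT3A fell as well, and 16.1% of tested genes were lower and 6.26% higher. No gene was higher at an unadjusted p under 0.05 (0 of 9) or by limma voom (0 of 9). The libraries lay wholly below those of EZH2+/+ ESCs for 4 genes (WNT7B, WNT8A, WNT10B and DKK1), against 22.4%, and above them for 0, against 9.77%. The median log2 change was -0.70, against -0.15 over all tested genes.

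**Figure D2:**
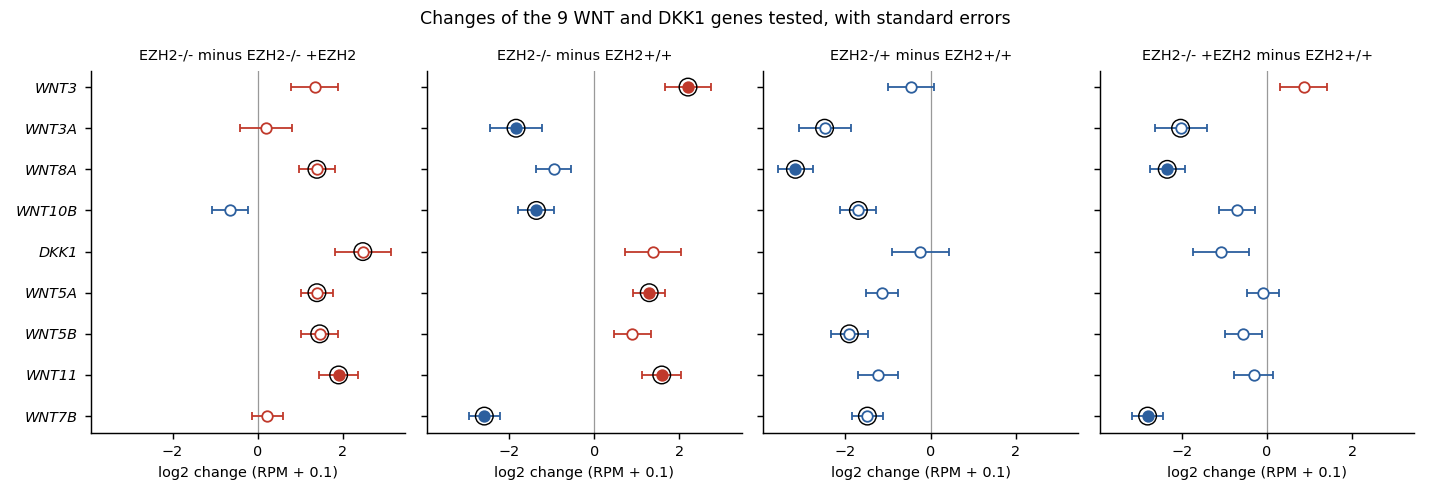
Log2 change (RPM + 0.1) of the 9 tested genes in the 4 comparisons, with the standard error as bars, red where positive and blue where negative. Filled points have an adjusted p under 0.05 in limma without a block and a black ring marks those under 0.05 with the library number as a block. In EZH2-/+ relative to EZH2+/+ ESCs all 9 points lie below 0 and only WNT8A is filled.

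WNT3 (ENSG00000108379, chr17:46762506-46833154, minus strand), the ligand required for the primitive streak in the mouse, showed the highest levels in EZH2-/- ESCs. It was at 7.50, 8.98 and 6.36 RPM in EZH2+/+ libraries and at 6.93, 12.1 and 1.89 RPM in EZH2-/+ libraries. It was at 29.4, 37.4 and 39.2 RPM in EZH2-/- libraries and at 24.8, 14.8 and 7.16 RPM in EZH2-/- +EZH2 libraries. The EZH2-/- libraries lay above all others, and the spread with the transgene on reached from the EZH2+/+ range to near the lowest EZH2-/- library. WNT3 rose by 2.20 on the log2 scale (SE 0.549, adjusted p = 0.00966) relative to EZH2+/+ ESCs, and this call held without any 1 of the 12 libraries (adjusted p from 0.000771 to 0.0358). Relative to EZH2-/- +EZH2 ESCs the change of 1.34 (SE 0.549) did not pass, with adjusted p = 0.235 and 0.0766 with the block. The change between EZH2-/- +EZH2 and EZH2+/+ ESCs was 0.87 (adjusted p = 0.355).

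WNT8A (ENSG00000061492, chr5:138083892-138092365, plus strand), another ligand of the β-catenin branch, was highest in EZH2+/+ ESCs. Its libraries were at 20.4, 38.6 and 25.3 RPM in EZH2+/+ and at 1.86, 2.12 and 6.23 RPM in EZH2-/+ ESCs. They were at 9.97, 16.4 and 16.6 RPM in EZH2-/- and at 7.33, 3.86 and 5.16 RPM in EZH2-/- +EZH2 ESCs. The EZH2-/- libraries thus fell between EZH2+/+ and both other genotypes, overlapping none of them. WNT8A fell by 3.17 on the log2 scale (SE 0.414, adjusted p = 0.00347) in EZH2-/+ and fell by 2.34 (adjusted p = 0.00451) in EZH2-/- +EZH2 relative to EZH2+/+ ESCs. Both calls held without any 1 library, but the first was not called when only the 2 genotypes were fitted (adjusted p = 0.105). The change between EZH2-/- and EZH2+/+ ESCs was -0.95 (SE 0.414, adjusted p = 0.0981). That between EZH2-/- and EZH2-/- +EZH2 ESCs was 1.39 (adjusted p = 0.0963, and 0.0445 with the block).

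WNT3A (ENSG00000154342, chr1:228007051-228061260, plus strand), the classical β-catenin ligand, and WNT10B (ENSG00000169884, chr12:48965340-48971763, minus strand) were highest in EZH2+/+ ESCs and did not rise without EZH2. WNT3A was at 2.82, 4.49 and 1.05 RPM in EZH2+/+, at 0.637, 0.389 and 0.142 RPM in EZH2-/+, at 0.563, 0.488 and 0.772 RPM in EZH2-/- and at 1.39, 0.348 and 0.240 RPM in EZH2-/- +EZH2 libraries. Of the 9 libraries of the other genotypes, 8 lay below every EZH2+/+ library, the exception being the first EZH2-/- +EZH2 library. WNT3A fell by 1.83 on the log2 scale (SE 0.609, adjusted p = 0.0368) in EZH2-/- relative to EZH2+/+ ESCs. This call was lost without EZH2+/+ library 1 (adjusted p = 0.0969) or 2 (0.153), or without EZH2-/- library 1 (0.0831), 2 (0.109) or 3 (0.0592). With the block WNT3A also fell by 2.49 in EZH2-/+ (adjusted p = 0.022, and 0.0845 without the block) and fell by 2.03 in EZH2-/- +EZH2 ESCs (adjusted p = 0.0135, and 0.0526 without the block). Between EZH2-/- and EZH2-/- +EZH2 ESCs its change was 0.19 (adjusted p = 0.906), although the mean in RPM was the lower in EZH2-/- ESCs (0.608 ± 0.147 against 0.659 ± 0.634 RPM, SD, n = 3). WNT10B was at 3.71, 4.26 and 5.07 RPM in EZH2+/+, at 0.784, 1.12 and 2.24 RPM in EZH2-/+, at 0.880, 1.56 and 3.06 RPM in EZH2-/- and at 2.19, 2.41 and 3.36 RPM in EZH2-/- +EZH2 libraries. All 9 of these lay below the lowest EZH2+/+ library. WNT10B fell by 1.35 (SE 0.422, adjusted p = 0.0281) in EZH2-/- relative to EZH2+/+ ESCs, a call lost without EZH2+/+ library 2 (adjusted p = 0.0716) or 3 (0.0836) or EZH2-/- library 1 (0.111) or 2 (0.0791). In EZH2-/+ ESCs its change was -1.69 (adjusted p = 0.0911, and 0.00549 with the block).

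The ligands known mainly for polarity and movement, WNT5A, WNT5B and WNT11, were each highest in EZH2-/- ESCs by mean. WNT5A (ENSG00000114251, chr3:55465715-55490539, minus strand) was at 7.06, 4.72 and 6.32 RPM in EZH2+/+, at 3.11, 1.51 and 3.86 RPM in EZH2-/+, at 8.99, 21.7 and 16.4 RPM in EZH2-/- and at 7.64, 4.80 and 4.68 RPM in EZH2-/- +EZH2 libraries. The EZH2-/- libraries were above all others and the EZH2-/+ libraries below all others. WNT5A rose by 1.29 on the log2 scale (SE 0.372, adjusted p = 0.0196) in EZH2-/- relative to EZH2+/+ ESCs. This call was lost without EZH2+/+ library 2 (adjusted p = 0.0784) or EZH2-/- library 2 (0.0935) or 3 (0.0602). Relative to EZH2-/- +EZH2 ESCs the change was 1.39 (SE 0.372, adjusted p = 0.065, and 0.0376 with the block). Its change between EZH2-/+ and EZH2+/+ ESCs was -1.14 (adjusted p = 0.23).

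WNT5B (ENSG00000111186, chr12:1529891-1647243, plus strand), a close relative of WNT5A, was at 8.15, 6.75 and 3.19 RPM in EZH2+/+, at 2.23, 1.49 and 0.854 RPM in EZH2-/+, at 7.79, 12.7 and 11.8 RPM in EZH2-/- and at 6.58, 2.65 and 3.08 RPM in EZH2-/- +EZH2 libraries. The EZH2-/- libraries overlapped with EZH2+/+ but not with EZH2-/- +EZH2 libraries, and those of EZH2-/+ ESCs were lowest. Its change was 1.45 (SE 0.431) relative to EZH2-/- +EZH2 ESCs, with adjusted p = 0.0936 and 0.0294 with the block. Between EZH2-/+ and EZH2+/+ ESCs the change was -1.91 (SE 0.431), with adjusted p = 0.0589 and 0.0178 with the block. Reads were counted without strand, and FBXL14 (8.22 RPM) lies opposite to WNT5B within its span, although their exons share 0 bases.

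WNT11 (ENSG00000085741, chr11:76186325-76210736, minus strand), which guides cell movements in gastrulation, was low in every genotype. Its libraries were at 0.355, 0.507 and 0.459 RPM in EZH2+/+, at 0.098, 0.065 and 0.267 RPM in EZH2-/+, at 0.633, 2.03 and 2.58 RPM in EZH2-/- and at 0.463, 0.241 and 0.320 RPM in EZH2-/- +EZH2 ESCs. The 3 EZH2-/- libraries were the highest of the 12. WNT11 rose by 1.90 on the log2 scale (SE 0.464, adjusted p = 0.0451) relative to EZH2-/- +EZH2 ESCs and by 1.59 (SE 0.464, adjusted p = 0.021) relative to EZH2+/+ ESCs. The first call held in 3 of 12 fits that each left out 1 library, those without EZH2-/+ library 2 or 3 or EZH2-/- library 1, and was lost without each of the other 9 libraries (adjusted p from 0.00543 to 0.23 over the 12). The second was lost without EZH2+/+ library 1 (adjusted p = 0.0668) or EZH2-/- library 2 (0.086) or 3 (0.0866). An opposite-strand gene, RP11-619A14.2, shares 204 exonic bases with WNT11 and was at 0.0494 RPM on average, so the reads of the 2 genes cannot be told apart there.

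DKK1 (ENSG00000107984, chr10:52314296-52318042, plus strand), the antagonist, moved in the same direction as WNT3 and WNT5A in EZH2-/- ESCs by its libraries. It was at 11.4, 6.21 and 4.94 RPM in EZH2+/+ and at 5.93, 20.5 and 1.71 RPM in EZH2-/+ libraries. It was at 15.1, 24.6 and 17.4 RPM in EZH2-/- and at 4.09, 2.04 and 4.24 RPM in EZH2-/- +EZH2 libraries. The EZH2-/- libraries lay above those of EZH2+/+ and EZH2-/- +EZH2 ESCs, while EZH2-/+ libraries spread from the lowest of all 12 to the second highest. Relative to EZH2-/- +EZH2 ESCs the log2 change was 2.47 (SE 0.658, adjusted p = 0.0641, and 0.0315 with the block). It passed without EZH2-/+ library 2 or 3, and with only the 2 genotypes in the fit (adjusted p = 0.0101). Relative to EZH2+/+ ESCs the change was 1.39 (SE 0.658, adjusted p = 0.127, and 0.00823 with the 2 genotypes alone). Between EZH2-/- +EZH2 and EZH2+/+ ESCs it was -1.08 (adjusted p = 0.333).

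WNT6 and WNT7B were near the limit of detection, and reads are given for them. WNT6 (ENSG00000115596, chr2:218859821-218874233, plus strand) had 1, 0 and 0 reads in EZH2+/+, 0, 0 and 1 in EZH2-/+, 0, 13 and 8 in EZH2-/- and 0, 0 and 1 in EZH2-/- +EZH2 libraries. Over its 3 libraries EZH2-/- had 21 reads against 1 in EZH2+/+, a depth-adjusted ratio of 19.0 with a 95% exact counting interval of 3.06 to 787, and the first EZH2-/- library had none. Counting intervals cover counting error only. WNT7B (ENSG00000188064, chr22:45920362-45977129, minus strand), a β-catenin ligand of epithelia and brain, had 47, 17 and 21 reads in EZH2+/+ and 9, 4 and 9 in EZH2-/+ libraries. It had 0, 0 and 2 reads in EZH2-/- and 0, 0 and 0 in EZH2-/- +EZH2 libraries. WNT7B thus remained at or near 0 in both genotypes derived from the EZH2-/- clone. The EZH2+/+ to EZH2-/- ratio was 46.9 (95% counting interval 12.6 to 394), and its limma adjusted p was 0.000365. Against a floor of 3 reads over the group (0.0296 RPM), WNT7B was at least 22.0-fold lower in EZH2-/- +EZH2 than in EZH2+/+ ESCs (adjusted p = 0.000911). The EZH2+/+ to EZH2-/+ ratio was 4.25 (2.64 to 7.14), with adjusted p = 0.0895 and 0.0488 with the block.

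As a description over the 12 libraries, WNT5A and WNT11 had the most similar profiles among the 9 tested genes (Pearson r = 0.94 on the log2 scale), followed by WNT5A with WNT5B (0.83) and WNT5B with WNT11 (0.80). The lowest value was that of WNT3 with WNT7B (-0.54). Among 15492 genes at or above 1 RPM on average, those most like WNT3 were FSCN1 (r = 0.978), SLC35F6 (0.974) and KIFC3 (0.972). Those most like WNT5A were PRRX2 (0.977), FGF18 (0.947) and MAPKAPK2 (0.920), and most like WNT5B were APLNR (0.984), CDX1 (0.981) and GYPC (0.964). For WNT8A they were CD82 (0.962), RNF43 (0.961) and CNTFR (0.954), and for DKK1 they were MOBP (0.959), SOX17 (0.956) and PLXNA2 (0.954). The nearest to WNT3A were FBXL14 (0.952), ASXL3 (0.942) and CCDC57 (0.931), and to WNT10B they were GSTM2 (0.921), ZDHHC4 (0.911) and FABP7 (0.909). All of these points share the same libraries, depth and genotype differences.

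H3K27me3 was read in windows 2.5 kb either side of annotated start sites, and for each gene the window with the most H3K27me3 in EZH2+/+ ESCs was used. The low values of each histone column fall on the steps of a mean of 2 libraries, and the labels list 2, while the study's text gives another number of replicates. The table holds no separate replicates, so these values carry no test. Of the 10 genes, 9 met the study's rule for an H3K27me3 promoter in EZH2+/+ ESCs, against 17.5% of all gene names, and 39 of the 48 windows did so. WNT8A, which has the fewest CG dinucleotides of the promoters shown above, was the exception. Windows of a gene often overlap, so they are not independent. As applied here, the rule was met by 6236 gene names. This set is larger than the promoter set that the study describes, for a reason that was not tested. Shares and medians given below for names that met the rule refer to the larger set.

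Among the β-catenin ligands with the mark, H3K27me3 at WNT3A was 44.7, 50.9, 2.74 and 35.7 RPM in EZH2+/+, EZH2-/+, EZH2-/- and EZH2-/- +EZH2 cells in this order. At WNT7B it was 46.7, 62.0, 2.66 and 46.2 RPM, and at WNT10B 27.2, 41.6, 1.39 and 24.5 RPM. At WNT3 it was 20.5, 17.2, 0.831 and 7.38 RPM. The mark was thus nearly gone without EZH2 at all 4, whether the RNA rose, as for WNT3, or fell, as for the other 3. Among the polarity ligands it was 20.3, 27.9, 1.46 and 8.79 RPM at WNT5A, 22.9, 26.7, 0.663 and 17.3 RPM at WNT5B, and 35.1, 42.8, 1.77 and 31.0 RPM at WNT11. WNT6 had 32.4, 39.3, 1.30 and 29.1 RPM. DKK1 had less, with 12.7, 13.4, 0.960 and 10.3 RPM, and WNT8A was at 0.828, 2.11, 0.709 and 1.69 RPM, below its input of 1.79 to 1.85 RPM in every genotype except EZH2-/+.

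Between 2.89% and 7.53% of the EZH2+/+ level was left in EZH2-/- ESCs at the 9 genes with the mark. Over the 10 genes the median log2 change in EZH2-/- was -4.14 relative to EZH2+/+ and -3.85 relative to EZH2-/- +EZH2 ESCs. The medians over all 6236 gene names that met the rule were -3.67 and -3.36. Relative to EZH2+/+ ESCs 9 of the 10 were lower by at least 1 on the log2 scale, against 48% of all gene names and 98.3% of those that met the rule, and relative to EZH2-/- +EZH2 ESCs all 10 were, against 37.3% and 97.3%. The EZH2-/- level lay below input at 6 of the 10, against 79.1% of the names that met the rule. In EZH2-/+ ESCs the mark was higher than in EZH2+/+ ESCs at 9 of the 10 genes, with a median log2 difference of 0.28 against 0.06 over the names that met the rule. Return of the mark with the transgene differed among the genes. EZH2-/- +EZH2 ESCs had 35.9% of the EZH2+/+ level at WNT3 and 43.2% at WNT5A, but 75.4% at WNT5B, 80.0% at WNT3A, 80.6% at DKK1, 88.3% at WNT11, 89.7% at WNT6, 90.2% at WNT10B and 99.1% at WNT7B. Of the gene names that met the rule 7.3% lay under 50%, and their median was 80.3% (quartiles 66.4% and 93.0%). The low return at WNT3 and WNT5A was found in each of their windows that met the rule, with 35.9% to 44.6% over the 4 windows of WNT3 and 40.8% to 50.5% over the 7 of WNT5A. RNA rose in EZH2-/- relative to EZH2+/+ ESCs at both, and also at WNT11, where 88.3% of the mark returned. EZH2 signal in EZH2+/+ ESCs, from 1 library, was 5.84 RPM at WNT7B, 4.24 RPM at WNT3A, 4.06 RPM at WNT11, 2.75 RPM at WNT5B, 2.60 RPM at WNT6, 1.59 RPM at WNT3, 1.48 RPM at WNT10B, 0.794 RPM at WNT5A, 0.461 RPM at DKK1 and 0.354 RPM at WNT8A. Of all gene names, 99.3% lay below WNT7B and 95.1% below WNT10B. The share was 85.9% for WNT5A, and only 65.9% for DKK1 and 56.4% for WNT8A.

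**Figure D3:**
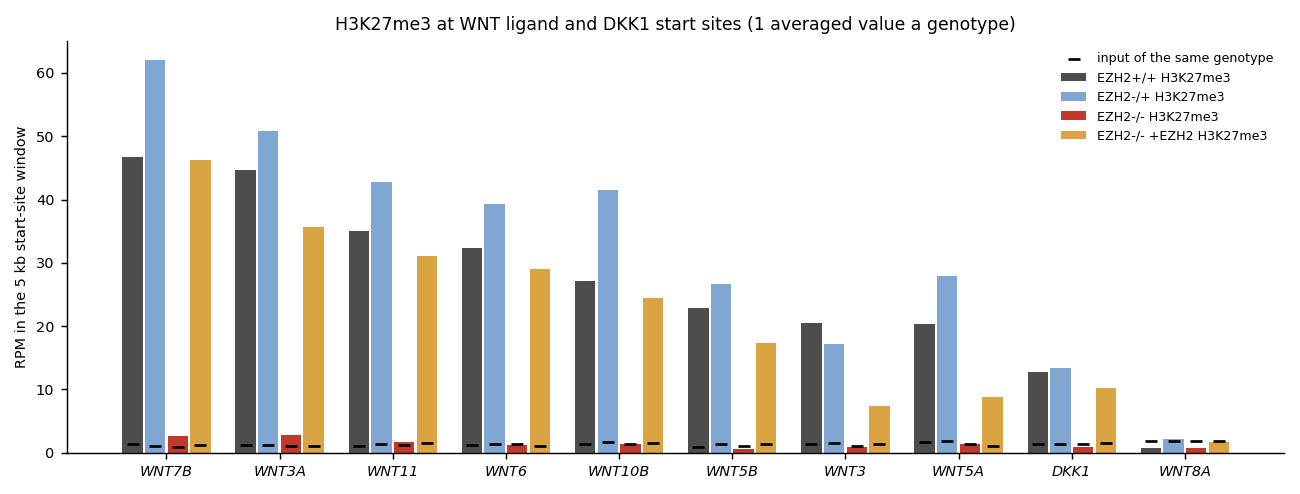
H3K27me3 in RPM (linear axis) in the start-site window of each of the 10 genes in the 4 genotypes, from 1 column a genotype without replicates, with black dashes at the input of the same genotype. At 9 genes EZH2-/- ESCs are at 0.663 to 2.74 RPM, and with the transgene WNT3 and WNT5A reach 7.38 and 8.79 RPM.

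H3K4me3, a mark of active and poised promoters, was over 0.1 log2 RPKM in EZH2+/+ ESCs at 9 of the 10 genes, against 82.3% of the gene names that met the H3K27me3 rule. The study set this limit for H3K27me3 and gave none for H3K4me3. Over the genotypes in the same order it was 19.2, 31.4, 28.7 and 23.8 RPM at WNT3, and 4.63, 3.82, 8.74 and 5.94 RPM at WNT8A. The direction at WNT3 depended on the window. In its other windows, which also met the H3K27me3 rule, H3K4me3 was lowest in EZH2-/- ESCs (for example 9.80, 6.36, 4.13 and 6.30 RPM). WNT3A was at 15.9, 23.5, 8.31 and 18.3 RPM and WNT7B at 10.2, 16.9, 6.13 and 13.4 RPM. In the windows used, WNT3A and WNT7B were the only genes of the 10 with at least 1 on the log2 scale less in EZH2-/- than in EZH2-/- +EZH2 ESCs (-1.13 and -1.12), which 0.947% of all gene names and 1.4% of those that met the H3K27me3 rule showed. Over the 5 WNT7B windows, all of which met that rule, this difference ran from -1.24 to -0.63. WNT5A (12.9, 21.7, 15.6 and 14.5 RPM) and DKK1 (13.0, 17.6, 12.1 and 11.8 RPM) differed less. The median over the 10 was -0.22 relative to EZH2-/- +EZH2 ESCs and -0.50 relative to EZH2+/+ ESCs, against -0.10 and -0.03 over the gene names that met the H3K27me3 rule.

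H3K27ac, a mark of active promoters and enhancers that occupies the same residue, was higher without EZH2 than with the transgene on at 9 of the 10 genes, with a median log2 difference of 0.71 against 0.665 over gene names that met the H3K27me3 rule. At WNT3 it was 2.05, 3.10, 4.36 and 3.75 RPM in the 4 genotypes in the order above, at WNT5A 1.85, 1.44, 2.92 and 1.68 RPM, at WNT11 1.26, 1.90, 2.58 and 1.22 RPM and at DKK1 1.41, 1.24, 2.48 and 1.40 RPM. These 4 genes were higher in EZH2-/- than in EZH2+/+ and EZH2-/- +EZH2 ESCs. Input in the 4 genotypes was 1.09 to 1.58 RPM at WNT3, 1.13 to 1.80 RPM at WNT5A, 1.05 to 1.49 RPM at WNT11 and 1.37 to 1.58 RPM at DKK1, and at each of the latter 3 at least 1 of the other genotypes had H3K27ac below its input. WNT7B had 0.859, 1.28, 0.562 and 0.697 RPM and was lowest without EZH2. In the windows used, a difference of at least 1 on the log2 scale was found for WNT6 (1.45) and WNT11 (1.02) relative to EZH2-/- +EZH2 ESCs, against 3.85% of all gene names and 18.5% of those that met the rule, and for WNT3 (1.05) relative to EZH2+/+ ESCs, against 9.18% and 23.2%. This depended on the window. Other WNT5A windows that met the rule reached 1.40 relative to EZH2-/- +EZH2 and 1.60 relative to EZH2+/+ ESCs. A WNT5B window reached 1.05 relative to EZH2-/- +EZH2 ESCs. The other WNT3 windows had 0.73 to 0.76 relative to EZH2+/+ ESCs. H3K4me1 was higher without EZH2 than with the transgene on at all 10 genes, with a median of 0.28. The median was 0.32 over the gene names that met the H3K27me3 rule and 0.12 over all gene names. Of the 10 genes 0 reached 1, against 0.308% of all gene names and 0.545% of those that met the rule.

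**Figure D4:**
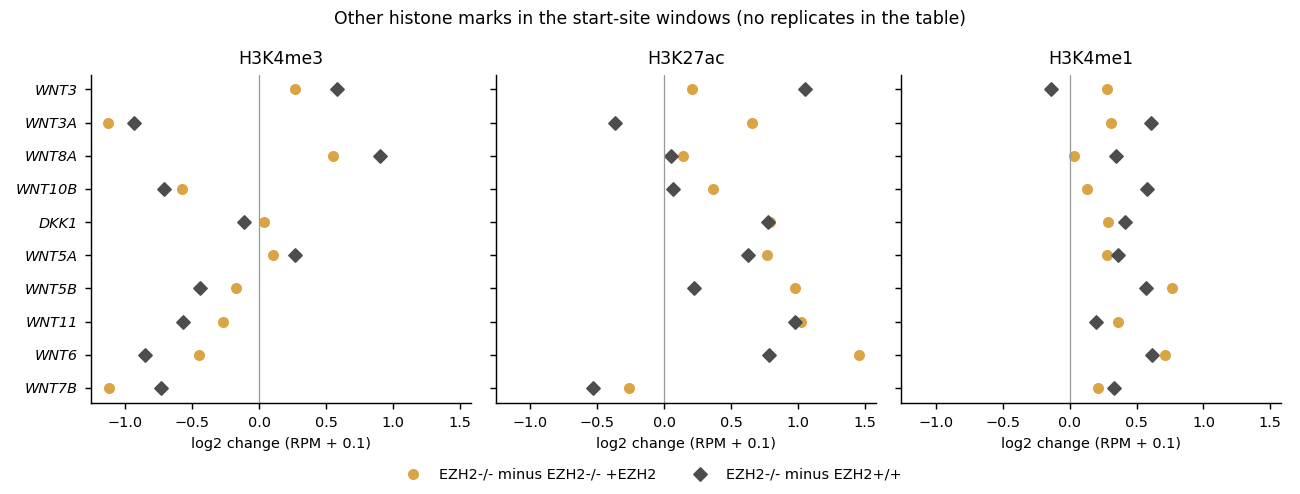
Log2 difference (RPM + 0.1) of H3K4me3, H3K27ac and H3K4me1 in the start-site window of each gene, for EZH2-/- minus EZH2-/- +EZH2 (circles) and EZH2-/- minus EZH2+/+ ESCs (diamonds), without replicates. H3K27ac lies above 0 in the first contrast at every gene except WNT7B, and H3K4me3 lies lowest at WNT3A and WNT7B.

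The rest of the pathway was followed by lists, to be read against the shares of all tested genes that were called, 2.63% higher and 0.524% lower in EZH2-/- relative to EZH2-/- +EZH2 ESCs and 12.6% higher and 18.8% lower relative to EZH2+/+ ESCs. Of 10 further WNT ligand genes 8 were tested, and 1, WNT16, rose in EZH2-/- relative to EZH2-/- +EZH2 ESCs (0.927 against 0.0264 RPM, adjusted p = 0.0224). Relative to EZH2+/+ ESCs 1 of the 8 rose, also WNT16, and 4 fell. With the block WNT9A was called higher in both contrasts, for 2 of the 8 in each (adjusted p = 0.0249 and 0.0198). Among those that fell were WNT1 (1.39 to 0.00586 RPM, adjusted p = 0.000207), WNT4 (7.92 to 0.420 RPM, adjusted p = 0.012) and WNT8B (1.34 to 0.252 RPM, adjusted p = 0.00507). Each was also called lower in EZH2-/- +EZH2 relative to EZH2+/+ ESCs. The changes there were -3.61 (adjusted p = 0.000882), -3.21 (0.0321) and -1.63 (0.0307) in this order. WNT4 varied widely in EZH2+/+ libraries, at 17.8, 1.45 and 4.50 RPM. Of 7 genes for ligand export and agonists, RSPO3, which amplifies WNT signals through LGR receptors, rose by 3.44 relative to EZH2-/- +EZH2 ESCs (adjusted p = 0.0407), and 0 fell. The change of RSPO3 relative to EZH2+/+ ESCs was 0.52 (adjusted p = 0.659). WLS, the carrier that takes WNT proteins to the cell surface, fell by 1.76 in EZH2-/- (adjusted p = 0.00928) and fell by 2.58 in EZH2-/+ ESCs (adjusted p = 0.0137), from 107 RPM in EZH2+/+ ESCs. With the transgene on, WLS was also lower than in EZH2+/+ ESCs, by 2.45 (20.9 RPM, adjusted p = 0.00468). PORCN, which adds the lipid to WNT proteins, rose by 1.04 (adjusted p = 0.00365) in EZH2-/- relative to EZH2+/+ ESCs.

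Of 13 tested secreted antagonists other than DKK1, 1 fell, SFRP1 (-1.33, adjusted p = 0.0143), and 0 rose in EZH2-/- relative to EZH2-/- +EZH2 ESCs, while 6 were higher at an unadjusted p under 0.05, 3 with the block and 0 by limma voom. SFRP1, a Frizzled-like WNT-binding protein, also fell by 2.35 relative to EZH2+/+ ESCs (345 to 66.1 RPM, adjusted p = 5.96e-05). CER1, a secreted inhibitor of Nodal, BMP and WNT, had a mean of 170 RPM in EZH2-/- ESCs, against 11.6 RPM in EZH2+/+ ESCs. This rise of 3.96 (adjusted p = 0.0377) was lost without EZH2-/- library 2 and by limma voom, each of which left 0 of the 13 higher. CER1 varied widely among EZH2-/+ libraries, at 36.6, 358 and 2.51 RPM. Library 2 of EZH2-/+ thus lay above every EZH2-/- library (116, 308 and 84.8 RPM). With the transgene on, the mean of CER1 was 15.2 RPM. Of 23 receptors and co-receptors, 1 rose and 0 fell relative to EZH2-/- +EZH2 ESCs (3 and 0 with the block), and 3 rose and 11 fell relative to EZH2+/+ ESCs. LGR5, a receptor for R-spondins and itself a WNT target, was the 1 that rose in the former (3.34, adjusted p = 0.0282) and rose in the latter as well (2.69, adjusted p = 0.0149). FZD7, the Frizzled gene with the highest level in this list, was at 219 RPM in EZH2+/+ ESCs. Of 18 cytoplasmic and nuclear components, 0 rose and 0 fell relative to EZH2-/- +EZH2 ESCs in limma, with 2 higher and 1 lower at an unadjusted p under 0.05, 1 higher and 1 lower with the block and 0 by limma voom. Mean CTNNB1, the gene of β-catenin, was 401, 406, 411 and 398 RPM in the 4 genotypes.

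Among 18 genes known to respond to WNT, 3 rose in EZH2-/- relative to EZH2-/- +EZH2 ESCs and 0 fell, and with the block 9 rose and 0 fell. By limma voom 2 rose. The 3 were TBX3 (3.74, adjusted p = 0.0028), MSX1 (2.28, adjusted p = 0.0385) and CCND1 (0.81, adjusted p = 0.0204). AXIN2, the most general target of β-catenin, was at 66.2, 32.7, 64.0 and 45.6 RPM on average, in the same order of genotypes and did not pass in that contrast (0.51, adjusted p = 0.192). The streak gene T was at 4.39, 2.12, 25.6 and 5.19 RPM, with a change of 2.97 (adjusted p = 0.0535, and 0.0109 with the block). Relative to EZH2+/+ ESCs 5 of the 18 rose and 1 fell in EZH2-/- ESCs. T was among the 5 (2.58, adjusted p = 0.0209). TBX3 rose there too (3.38, adjusted p = 0.000438), while MSX1 (0.07, adjusted p = 0.934) and CCND1 (0.26, adjusted p = 0.245) were not called. In EZH2-/+ ESCs 0 rose and 5 fell, and with the block 11 fell. The 5 included AXIN2 (-1.02, adjusted p = 0.0278), NKD1 (-2.15, adjusted p = 0.00782) and SP5 (-1.90, adjusted p = 0.00782). Here 1 response gene was higher at an unadjusted p under 0.05 and 0 by limma voom. The summed level of the 18 was 388 to 483 RPM in EZH2+/+, 182 to 266 RPM in EZH2-/+, 474 to 628 RPM in EZH2-/- and 242 to 397 RPM in EZH2-/- +EZH2 libraries, and that of the 10 WNT and DKK1 genes was 53.1 to 74.9, 17.4 to 39.4, 73.3 to 117 and 28.3 to 54.4 RPM. Both sums thus overlapped between EZH2-/+ and EZH2-/- +EZH2 libraries and lay below those of EZH2+/+ libraries, without overlap, in EZH2-/+ ESCs.

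**Figure D5:**
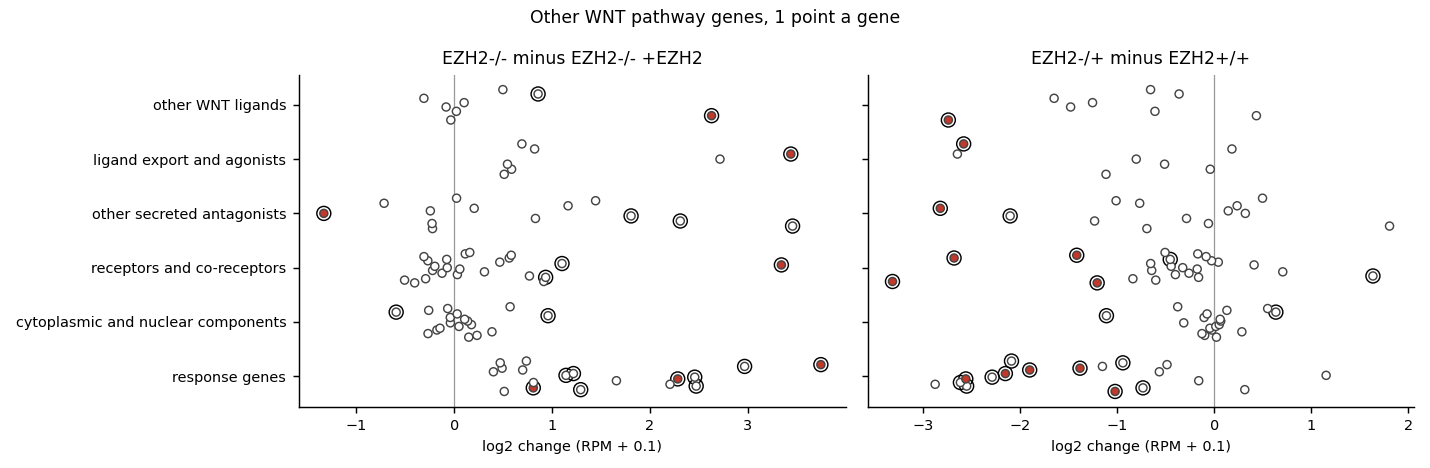
Log2 change (RPM + 0.1) of each tested gene of the pathway lists, for EZH2-/- minus EZH2-/- +EZH2 and EZH2-/+ minus EZH2+/+ ESCs. Each point is a gene, its height within a list is arbitrary, filled points have an adjusted p under 0.05 in limma without a block, and a black ring marks those under 0.05 with the library number as a block. Of the 18 response genes 3 are filled on the higher side in the first contrast and 5 on the lower side in the second.

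Markers of other cell types were followed by lists as well. Of 10 mesendoderm and mesoderm markers 3 rose and 0 fell in EZH2-/- relative to EZH2-/- +EZH2 ESCs. They were TWIST1 (0.246 to 7.30 RPM), HAND1 (0.841 to 23.3 RPM) and the endoderm factor SOX17 (2.56 on the log2 scale, adjusted p = 0.0274). Their summed level was 22.6 to 45.9 RPM in EZH2+/+, 12.3 to 111 RPM in EZH2-/+, 129 to 235 RPM in EZH2-/- and 25.2 to 80.6 RPM in EZH2-/- +EZH2 libraries. With the block 6 rose. Of 9 tested amnion and trophectoderm markers 3 (GATA2, GATA3 and ISL1) rose and 0 fell in the same contrast, to averages of 1.38 to 2.35 RPM in EZH2-/- ESCs, and 5 rose with the block, which added KRT8 and KRT18. The summed level of 993 to 1892 RPM in EZH2-/- libraries, above the 359 to 810 RPM of the other 9, came mostly from KRT8 (940 RPM on average, adjusted p = 0.0614) and KRT18 (575 RPM, adjusted p = 0.0609), which did not pass without the block, and CGA was at 0 in every library. Of 9 tested mesenchymal and feeder-type markers 2 rose and 0 fell, and with the block 4 rose and 1 fell (VIM, adjusted p = 0.0127). COL3A1 was at 4.70, 109 and 47.8 RPM and LUM at 0.370, 6.25 and 3.15 RPM in the 3 EZH2-/- libraries, lowest in library 1 and highest in library 2, as were WNT5A, WNT5B and DKK1. The summed level of this list was 581 to 941 RPM in EZH2-/- and 764 to 1158 RPM in the other libraries, with DCN at 0 in EZH2-/+ and EZH2-/- +EZH2 ESCs. Of 9 tested neural markers 1 rose, ZIC1, whose change relative to EZH2+/+ ESCs was -0.10 (adjusted p = 0.909), and 0 fell. Relative to EZH2+/+ ESCs 1 of the 9 rose in EZH2-/- ESCs and 3 fell. The 3 were SOX1 (-5.89, adjusted p = 1.21e-05), MAP2 (-4.42, adjusted p = 5.86e-05) and PAX6 (-2.57, adjusted p = 0.00227). In EZH2-/- +EZH2 relative to EZH2+/+ ESCs 0 rose and 4 fell, against 3.4% and 6.9% of all tested genes. With the block 2 rose and 1 fell (MAP2, adjusted p = 0.0219), again relative to EZH2-/- +EZH2 ESCs. Where a list of genes or markers had 0 called lower in this contrast, the number lower at an unadjusted p under 0.05 was 0 for ligands, export genes, response genes and the mesendoderm and amnion markers, 1 for receptors and mesenchymal markers and 2 for neural markers, and limma voom called 0 lower in each. The rises in this contrast were mostly not called by limma voom, which gave 0 higher for ligands, export genes, receptors and the amnion, mesenchymal and neural markers, 1 for the mesendoderm markers and 2 for the response genes. Without EZH2-/- library 2 the numbers higher were 0 for ligands, export genes, receptors and the mesenchymal and neural markers and 1 each for the response genes and the mesendoderm and amnion markers. Without EZH2-/- +EZH2 library 3 they were 0 for ligands, receptors and neural markers, 1 for export genes and mesenchymal markers, 2 for mesendoderm markers and 3 for response genes and amnion markers. The part of these cell types in the levels of the WNT genes and DKK1 was not tested. Without EZH2-/- library 2, 0 of the 9 tested genes rose relative to EZH2-/- +EZH2 ESCs, and 1 of them, WNT3, rose relative to EZH2+/+ ESCs.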

How the data were processed

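The authors trimmed reads with Trim Galore 0.4.0, aligned RNA-seq reads with TopHat2 2.0.12 and ChIP-seq reads with Bowtie2 2.2.5 to GRCh38 (versions from the submitters' processing notes), counted RNA reads per gene without strand and non-duplicated ChIP reads in start-site windows, and deposited both as log2 RPM. Values were returned to RPM. Below 1000 reads, 100% of RNA values were whole reads within 0.05 reads. Genes without a read, set by the authors to 0.9 of a read, were set to 0. Tests used limma 3.58.1 in R 4.3.3 (lmFit, eBayes with trend) on log2(RPM + 0.1) of all 12 libraries. Genes averaging 0.1 RPM or more were tested and those with a Benjamini-Hochberg adjusted p under 0.05 called. On simulated data for EZH2-/- against EZH2+/+ with 20608 genes, 95% of 2-fold and 100% of 4-fold changes were recovered. The simulation had a fixed spread and no effect of the library number, and changed only genes at 1 RPM or more. In the real data a change above 2-fold could go uncalled, as for DKK1 in this contrast (1.39 on the log2 scale, adjusted p = 0.127). The recovered shares thus cannot be carried over to the 10 genes. All 18 pairs of libraries with the same number correlated above 0.1 in their deviations (0.127 to 0.691). This pairing comes from the data, not the labels. All 10 genes were named. From the lists, at most the 5 called genes with the largest change and the highest genes were named, and for each of the 10 at 1 RPM or more the 3 most correlated ones. Other genes named for contrast (AXIN2, NKD1, SP5) were chosen after their values were seen. The genes and lists were chosen with earlier results of these data known.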

Additional observations from a re-analysis of the deposited data

How the results depend on the processing

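Relative to EZH2-/- +EZH2 ESCs, the 1 gene called became 0 with a pseudocount of 0.05 RPM, under a 1 RPM minimum (WNT11 was then not tested), without a filter and by limma voom, 2 with only the 2 genotypes in the fit and 5 with the library number as a replicate block, and it ranged from 0 to 4 when 1 library was left out. Relative to EZH2+/+ ESCs, the 6 called in EZH2-/- ESCs ranged from 2 to 8 without 1 library. The 1 called in EZH2-/+ ESCs became 5 with the block and 0 with 2 genotypes, and ranged from 1 to 3. The 2 called in EZH2-/- +EZH2 ESCs became 1 under a 1 RPM minimum and ranged from 2 to 3. Beyond the calls given beside the results the block changed no other call, with 9 of 36 values changed. Over 712 values of single genes, 641 kept direction and call, 32 passed the threshold newly, 30 lost it and 9 changed sign. The sign changes were of WNT5A in EZH2-/- +EZH2 relative to EZH2+/+ ESCs (0.0486 when rescaled, and -0.32 to 0.0254 without 1 library), of WNT3A between EZH2-/- and EZH2-/- +EZH2 ESCs (-0.23 to 0.84 without 1 library), of WNT3 in EZH2-/+ relative to EZH2+/+ ESCs (-1.03 to 0.28, the highest without EZH2-/+ library 3) and of DKK1 there (-1.12 to 0.64, the highest without EZH2-/+ library 3). The median H3K27me3 change of -4.14 between EZH2-/- and EZH2+/+ ESCs became -3.59 with a pseudocount of 1 RPM and -3.20 when centred on all gene names. The cause was not tested. Depth limits WNT6 and WNT7B, and ChIP values have no replicates.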
